A study of Mus musculus with 2 samples.

Results

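The genes described here are 34 markers of blood lineages other than the B cell: 20 myeloid and granulocyte genes, from Ltf to Lyz2, and 14 erythroid genes, from Slc4a1 to Hba-a1. They were chosen by name, and every probe carrying one of these names, or an older name that RefSeq now gives to the same gene, was kept. All 34 genes were found among 27670 distinct gene or transcript names, through 49 of the 41174 probes of a mouse oligonucleotide microarray, 28 of them myeloid and 21 erythroid. The samples were B cells sorted from mouse bone marrow, and these genes are used as markers of lineages that the sort was not aimed at. The cells that their transcripts came from were not tested. Each RNA was hybridised as a pool of immature B cells, sorted as B220+ cells without surface CD23, CD43 and IgD. The autoreactive cells came from BALB.B mice of genotype 3-83Igi,Rag1-/-,H-2b, and the non-autoreactive cells from BALB/c mice of genotype 3-83Igi,H-2d. Both groups carry the 3-83Igi immunoglobulin insertion, whose receptor recognises H-2b class I molecules and not those of H-2d. The groups therefore differ in named strain, Rag1 status and H-2 haplotype, and with the haplotype in whether the receptor meets a self antigen. These differences come together and cannot be told apart. Mice without Rag1 make no T cells and no B cells other than those given by inserted receptor genes, while myeloid and erythroid lineages need no antigen receptor. The mice were untreated, red cells were lysed in ACK buffer before staining, and the ages, sexes and number of animals in a pool are not given in the sources used here. The RNAs were hybridised in 2 colours on 2 arrays of 1 slide, each with autoreactive RNA in Cy5 and non-autoreactive RNA in Cy3, so the dye and the group cannot be told apart.

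Neutrophils store antimicrobial proteins in granules that are filled in a fixed order as the cell matures. Primary (azurophil) granules hold myeloperoxidase and the serine proteases made at the promyelocyte stage, and secondary granules hold lactoferrin, cathelicidin and lipocalin made at the myelocyte stage. Erythroid precursors, driven by erythropoietin and by the transcription factors GATA1 and KLF1, build a specialised membrane skeleton, haem and globin before they lose the nucleus. The mature red cell retains globin transcripts only briefly.

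The start regions of the genes differ between the lineages, and RefSeq promoter windows (build GRCm38.p6) were read for the members in that table. A window covers 300 bases, from 250 before the start site to 50 after it. It was found for 16 of 20 myeloid genes (17 promoters) and 10 of 14 erythroid genes (11 promoters), among 32851 promoters in all. Fcgr3 and Tfrc each had a further, overlapping window, and each window was counted as a promoter. Matches were counted on both strands. AGATAA or TGATAA, forms of the GATA motif, occurred in 8 of 11 erythroid promoters (72.7%), 3 of 17 myeloid promoters (17.6%) and 18.6% of all promoters. CCACCC, the core of the KLF1 motif, occurred in 9 erythroid promoters (81.8%), 6 myeloid promoters (35.3%) and 31.5% of all. GAGGAA, a core of the PU.1 motif, occurred in 12 myeloid promoters (70.6%), 4 erythroid promoters (36.4%) and 28.3% of all. TTGCNNAA, a form of the C/EBP motif, occurred in 6 myeloid promoters (35.3%), 0 erythroid promoters and 10.8% of all. These are letter matches, not measured binding. The windows shown belong to a secondary granule gene and a primary granule gene, whose levels differed between the arrays mainly in different channels, and to 2 erythroid genes, 1 of which passed the test. They are the 250 bases before the start site, at chr9:111019042-111019291 (plus strand) for Ltf, chr11:87793534-87793783 (plus) for Mpo, chr4:46404184-46404433 (minus) for Hemgn and chrX:150547167-150547416 (plus) for Alas2. Capitals mark a match to any of the 5 motifs on either strand, and the CCACCC matches of Alas2 lie end to end with shared bases.
Ltf: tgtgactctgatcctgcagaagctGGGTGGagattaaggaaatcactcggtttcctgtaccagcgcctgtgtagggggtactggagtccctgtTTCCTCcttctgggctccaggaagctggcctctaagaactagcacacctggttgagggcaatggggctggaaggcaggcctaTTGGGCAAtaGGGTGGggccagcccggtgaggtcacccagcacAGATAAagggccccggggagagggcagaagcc
Mpo: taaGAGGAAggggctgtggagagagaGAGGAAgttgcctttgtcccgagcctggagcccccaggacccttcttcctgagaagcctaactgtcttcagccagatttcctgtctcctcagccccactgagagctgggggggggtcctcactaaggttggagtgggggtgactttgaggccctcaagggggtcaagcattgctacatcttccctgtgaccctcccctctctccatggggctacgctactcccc
Hemgn: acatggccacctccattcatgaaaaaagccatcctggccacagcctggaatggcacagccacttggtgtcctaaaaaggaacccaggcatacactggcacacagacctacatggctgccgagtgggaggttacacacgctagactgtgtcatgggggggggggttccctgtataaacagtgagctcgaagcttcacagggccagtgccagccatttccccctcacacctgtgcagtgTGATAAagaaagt
Alas2: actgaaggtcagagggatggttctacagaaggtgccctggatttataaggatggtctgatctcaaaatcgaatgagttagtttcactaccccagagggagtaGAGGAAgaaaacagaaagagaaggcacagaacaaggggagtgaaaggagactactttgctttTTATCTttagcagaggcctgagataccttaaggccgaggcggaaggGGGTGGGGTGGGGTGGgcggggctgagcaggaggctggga

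In these windows the Ltf promoter held 4 of the 5 motifs, with AGATAA starting 32 bases before the start site (position -32) and TTGCNNAA at -75. The Mpo promoter held GAGGAA at -247 and -224 and no other motif. The Hemgn promoter held TGATAA at -13, and the Alas2 promoter held AGATAA at -86 with 3 CCACCC matches from -40 to -30.

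The fit took 22613 probes whose signal stood well above background on each array in either or both channels, and 54.1% to 57.4% of the spots of a channel were well above background. No spot was saturated. Ratios are log2 of autoreactive over non-autoreactive signal, so a negative ratio is lower in autoreactive cells. The class II gene H2-Ea, which H-2b mice do not express and H-2d mice do, had ratios of -5.22 and -5.26 on arrays 1 and 2, matching the labels. The 31 probes of 19 B cell identity genes had median ratios of -0.03 and -0.05, with 7 lower and 7 higher calls from -3.61 (Ms4a1, CD20) to 1.35 (Ighm, the mu heavy chain). The 3 Rag1 probes rose in the cells labelled Rag1-/-, with mean ratios of 4.14, 3.32 and 1.04. The sources used here do not say which part of Rag1 is deleted, so these probes do not check the genotype. Of the sort's own markers, the Fcer2a probe (CD23) fell, at a mean ratio of -1.71, although the sort took CD23-negative cells in both groups. The brightest Ptprc probe (CD45, of which B220 is a form) fell at -0.85. Probes of Spn (CD43) were not called, with mean ratios of -0.06, 0.03 and -0.03. The brightest Spn probe had normalised log2 levels of 14.67 and 14.15 in autoreactive cells and 14.51 and 14.36 in non-autoreactive cells, although the sort took cells without surface CD43. The 2 arrays are labelled as replicates but nothing says that their cells came from separate animals, so p-values cannot be taken to measure a spread between animals. They rest on the spread between these 2 hybridisations, moderated by the variance of all probes in the fit.

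Of the 49 probes, 47 entered the fit, 27 myeloid and 20 erythroid. A probe each of Csf1r and Hemgn was not above background in either channel, and both genes were measured by other probes. All 27 myeloid probes and 19 of 20 erythroid probes were well above background in both channels on both arrays, and Rhag did not meet that criterion in the autoreactive channel of 1 array. The lowest raw signal of a probe was 3.46 to 1507 times the local background in the myeloid block (median 62.2) and 2.48 to 853 times in the erythroid block (median 21.9). Transcripts of these genes were therefore detected in both sorted populations, and the cells they came from were not tested. In pooled cells, fewer cells of a type and less RNA per cell cannot be told apart.

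Most erythroid genes were lower in autoreactive cells on both arrays, by a similar amount, whereas the myeloid genes as a group were near 0 on array 1 and lower on array 2. Both statements are for loess-normalised ratios. The median ratio of the myeloid block was -0.01 on array 1 and -0.83 on array 2, while that of the erythroid block was -0.46 and -0.43. The median of all probes was 0.01 and 0.00. On array 2, 26 of 27 myeloid and 20 of 20 erythroid probes lay below 0 (49.9% of all probes), and on array 1 14 and 19 did (47.3%). On both arrays, 14 of 27 myeloid probes (51.9%) and 19 of 20 erythroid probes (95%) had ratios below 0, against 34.0% of all probes. By each gene's brightest probe, this held for 9 of 20 myeloid genes and 13 of 14 erythroid genes. In limma's moderated test with Benjamini-Hochberg adjustment over all 22613 probes, 2 of 27 myeloid probes fell (7.41%), those of Ltf and Wfdc21, and 0 rose. Of the 20 erythroid probes 2 fell (10%), those of Slc4a1 and Hemgn, and 0 rose. Among all probes, 2.18% were called lower and 3.18% higher. All 4 calls were lost without the filter on dim probes and when the channels were fitted without pairing by array, and those of Slc4a1 and Hemgn also with the scanner software's own ratios. With each array's ratios centred on the median of all spots in place of an intensity-dependent (loess) correction, the median of all probes itself moved to 0.54 and the block medians turned to 0.29 (myeloid) and 0.12 (erythroid), which lie 0.25 and 0.41 below that of all probes (-0.25 and -0.41).

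**Figure D1:**
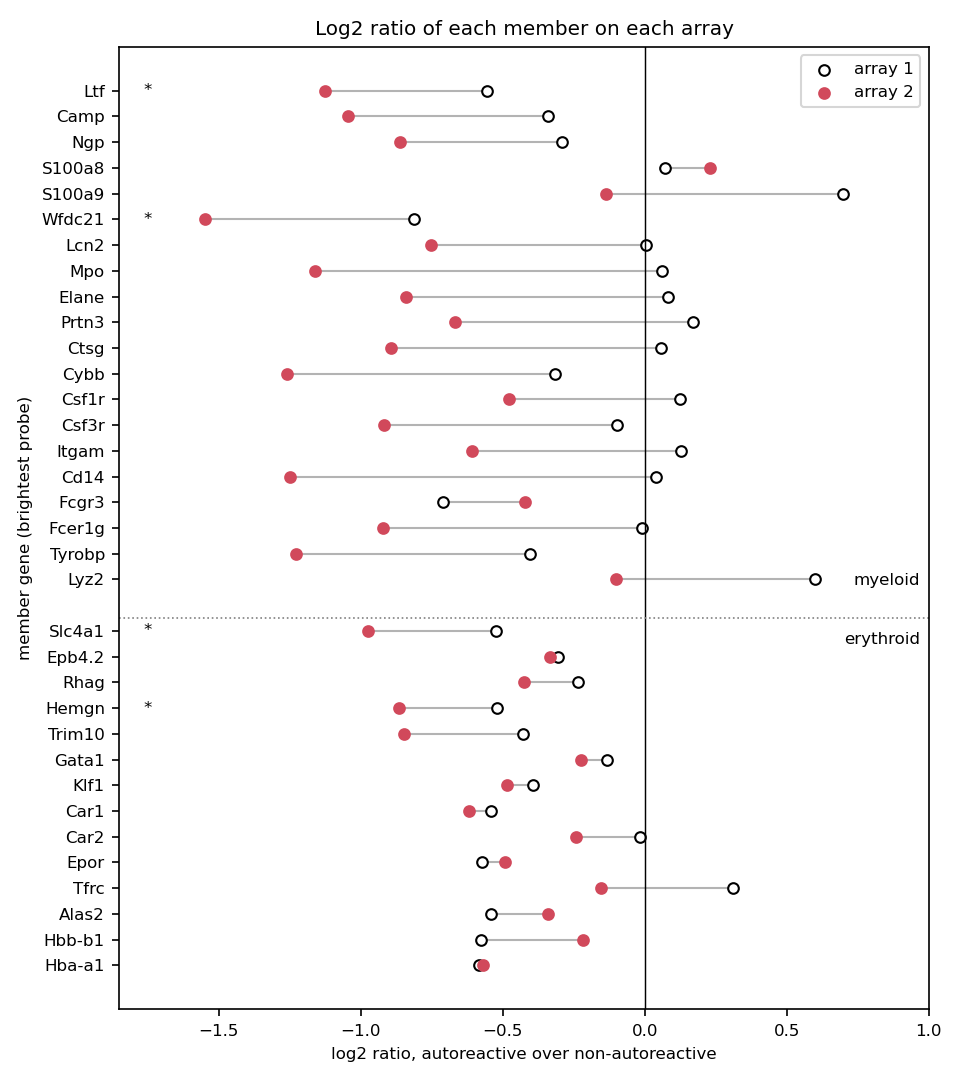
Log2 ratio of autoreactive over non-autoreactive signal (x axis) for the brightest probe of each of the 34 genes (y axis), with open circles for array 1, red circles for array 2 and a star for genes past the adjusted threshold. After loess normalisation the erythroid circles lie below 0 except for Tfrc on array 1, while most myeloid genes are near 0 on array 1 and between -0.42 and -1.55 on array 2, apart from S100a8, S100a9 and Lyz2.

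The secondary granule proteins and calprotectin held both myeloid calls. Ltf encodes lactoferrin, the iron-binding protein of secondary granules. Its brightest probe had normalised log2 levels of 15.00 and 15.18 in autoreactive cells on arrays 1 and 2, and of 15.56 and 16.31 in non-autoreactive cells. Both autoreactive values lay below both non-autoreactive ones. The ratios of -0.56 and -1.13 gave a mean of -0.84 ± 0.17 (SE, n = 2 arrays), 1.79-fold lower, with a limma adjusted p of 0.0455. The SE, here and below, is limma's moderated one, which draws on the variance of all probes in the fit and not on the 2 arrays alone. The second Ltf probe had ratios of -0.25 and -1.26 and did not pass (adjusted p = 0.136), so the call rests on 1 of 2 probes. Centring on the median of all spots turned the Ltf ratio to 0.40, a higher call (adjusted p = 0.0429), against 0.54 for all probes.

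Wfdc21, a whey acidic protein family gene listed on the array as 1100001G20Rik, had the lowest mean of the 47 probes. Its levels were 12.23 and 12.43 in autoreactive cells and 13.05 and 13.98 in non-autoreactive cells, again without overlap. The ratios of -0.81 and -1.55 averaged -1.18 ± 0.19 (SE, n = 2), 2.27-fold lower, with a limma adjusted p of 0.0262. Camp, the cathelicidin antimicrobial peptide, had levels of 15.17 and 15.01 against 15.51 and 16.06, and ratios of -0.34 and -1.04 that did not pass (adjusted p = 0.0982). Ngp, the neutrophilic granule protein, had ratios of -0.29 and -0.86 (adjusted p = 0.117). Lcn2, a lipocalin that binds bacterial siderophores, had ratios of 0.00 and -0.75 (adjusted p = 0.306).

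The 2 calprotectin subunits, abundant calcium-binding proteins of the neutrophil cytosol, did not share these values. S100a8 had ratios of 0.07 and 0.23, the highest of any myeloid probe on array 2, with levels of 16.09 and 16.52 against 16.02 and 16.29. S100a9 had ratios of 0.70 and -0.14, with levels of 17.62 and 17.20 against 16.92 and 17.34. Neither passed the test (adjusted p = 0.501 and 0.453). In the ratios computed by the scanner software both genes stood at -0.32, so their direction depends on the normalisation.

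The 4 primary granule genes all lay just above 0 on array 1 and below 0 on array 2. Mpo, which encodes myeloperoxidase, had ratios of 0.06 and -1.16, with levels of 15.79 and 14.93 in autoreactive cells and 15.73 and 16.09 in non-autoreactive cells. Its channels were nearly level on array 1 and apart on array 2. Elane, the neutrophil elastase gene listed as Ela2, had ratios of 0.08 and -0.84, with levels of 11.84 and 10.58 against 11.76 and 11.43. Prtn3 (proteinase 3) had ratios of 0.17 and -0.67, with levels of 11.06 and 10.08 against 10.89 and 10.75. Ctsg, which encodes the granule protease cathepsin G, had ratios of 0.06 and -0.89, with levels of 14.79 and 13.88 against 14.73 and 14.78. Their mean ratios of -0.25 to -0.55 had moderated standard errors of 0.21 to 0.28. None passed the test (adjusted p from 0.290 for Mpo to 0.508 for Prtn3).

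Receptors, adaptors and the phagocyte oxidase gave 13 probes, of which 8 lay below 0 on array 1 and 13 on array 2. Tyrobp, the ITAM adaptor DAP12, had ratios of -0.40 and -1.23 (mean -0.82 ± 0.21, SE, n = 2, limma adjusted p = 0.0848). Cybb, the catalytic subunit of the oxidase, had ratios of -0.32 and -1.26 at its brightest probe (adjusted p = 0.114) and -0.15 and -0.64 at the other. Cd14, the co-receptor for lipopolysaccharide, had the widest gap of any member, with 0.04 on array 1 and -1.25 on array 2. Csf3r, the receptor for granulocyte colony-stimulating factor, had -0.10 and -0.92. Fcer1g, the common chain of activating Fc receptors, had -0.01 and -0.92 at its brightest probe and 0.12 and -0.77 at the other.

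Itgam, the integrin chain CD11b, had ratios of 0.13 and -0.61 at its brightest probe and 0.06 and -0.43 at the other. Csf1r, the receptor for macrophage colony-stimulating factor, had 0.13 and -0.48, and a dimmer probe had -0.28 and -0.52. Fcgr3, a low-affinity IgG receptor, gave the only probe besides S100a8 whose ratio was not lower on array 2, with -0.71 and -0.42 (adjusted p = 0.0730), but its second probe had -0.04 and -0.73. Lyz2, the myeloid lysozyme listed as Lyzs, had 0.60 and -0.10 at its brightest probe and -0.03 and -0.83 at the other. For Fcgr3 and Lyz2 the value on array 1 thus depends on the probe read.

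In the erythroid block the membrane genes held 1 call. Slc4a1 encodes band 3, the anion exchanger that anchors the red cell skeleton. Its levels were 11.48 and 10.71 in autoreactive cells and 12.01 and 11.69 in non-autoreactive cells, with no overlap between the groups. The ratios of -0.52 and -0.97 averaged -0.75 ± 0.15 (SE, n = 2), 1.68-fold lower, with a limma adjusted p of 0.0481. Epb4.2, the gene of protein 4.2 that binds band 3, had ratios of -0.30 and -0.33 at one probe and -0.36 and -0.40 at the other. Rhag, the Rh-associated glycoprotein, had -0.23 and -0.43. The latter genes did not pass, although their arrays differed by only 0.03 to 0.19 (array 2 minus array 1, -0.03 to -0.19).

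The erythroid regulators held the other call. Hemgn encodes hemogen, a nuclear protein of erythroid precursors. Its brightest probe had levels of 10.13 and 9.42 in autoreactive cells and 10.65 and 10.29 in non-autoreactive cells. Within each array the autoreactive level was lower, and over both arrays the groups did not overlap. The ratios of -0.52 and -0.87 averaged -0.69 ± 0.14 (SE, n = 2), 1.62-fold lower, with a limma adjusted p of 0.0479, and a second probe had -0.27 and -0.56 (adjusted p = 0.146). Trim10, a tripartite-motif gene of terminal erythroid cells, had -0.43 and -0.85 (adjusted p = 0.0683). It lies on chromosome 17, as does H2-Ea, and the part of the H-2 difference in its ratio was not tested. Klf1, the erythroid Krüppel-like factor, had -0.39 and -0.49 (adjusted p = 0.107). Gata1, which erythroid, megakaryocyte, mast cell and eosinophil lineages share, was nearer 0, at -0.13 and -0.22 (adjusted p = 0.422). The Slc4a1 and Hemgn calls were close to the threshold, and an offset of 16 in place of 50 in the background correction gave adjusted p-values of 0.0568 and 0.0543.

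Haem and globin genes gave 7 probes, all below 0 on both arrays and none past the threshold. Hba-a1, an alpha globin gene, had -0.58 and -0.57 at its brightest probe (mean -0.58 ± 0.12, SE, n = 2, limma adjusted p = 0.0531) and -0.47 and -0.44 at the other. The 4 beta globin probes named Hbb-b1 had mean ratios of -0.40, -0.37, -0.33 and -0.54, and the accessions of all 4 now belong to RefSeq Hbb-bt, 2 of them also to Hbb-b2. Near-identical globin copies can share signal, so the copy behind these values is uncertain. Alas2, the erythroid enzyme that starts haem synthesis, had -0.54 and -0.34 (adjusted p = 0.116). Under centring on the median of the probes above background, 3 Hbb-b1 probes (0.34, 0.29 and 0.24) and 1 Hba-a1 probe (0.06) were above 0, so the sign for these globin probes depends on the normalisation.

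Of the carbonic anhydrases, Car1, which erythroid cells express, had ratios of -0.54 and -0.62 (mean -0.58 ± 0.12, SE, n = 2, limma adjusted p = 0.0532). Car2, which other cell types also express, had -0.02 and -0.24 (adjusted p = 0.578). Of the receptors, Epor, the erythropoietin receptor, had -0.57 and -0.49 (adjusted p = 0.0672). Tfrc, the transferrin receptor, had 0.31 and -0.16 and was the only erythroid gene above 0 on array 1. Dividing cells of many types take up iron through Tfrc, and without it the erythroid median was -0.44 in place of -0.43.

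The difference between arrays was then read for each block. The ratio was lower on array 2 than on array 1 for 25 of 27 myeloid probes and 13 of 20 erythroid probes, against 51.2% of all probes. The median difference was -0.76 for the myeloid block, -0.09 for the erythroid block and -0.01 for all probes. The erythroid block was mixed: without the globin probes 12 of 14 were lower on array 2 (median difference -0.14). Of the haem and globin probes 1 of 7 was lower (median difference 0.19). The SD of the differences was 0.35 over the myeloid probes, 0.25 over the erythroid probes and 0.35 over all probes. On array 2 alone, 8 myeloid probes and 0 erythroid probes were at least 2-fold lower in autoreactive cells, against 2.39% of all probes. On array 1, 0 members were (0.778% of all probes), so 0 were on both arrays (0.593%). At least 2-fold higher were 0 members on either array, against 1.18% of all probes on array 1 and 1.91% on array 2. With 1 hybridisation per array these differences have no replicate and no test. The 25 of 27 held under all 6 normalisations compared, which were chosen for this after seeing the data, with the myeloid median difference between -0.66 and -0.76.

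Separate channel levels showed where the myeloid difference lay. From array 1 to array 2 the autoreactive level was lower for 24 of 27 myeloid probes (51.3% of all probes) and the non-autoreactive level was higher for 24 of 27 (48.7% of all probes), with median changes of -0.27 and 0.42 on the log2 scale. Among all probes both medians were -0.01. The 8 secondary granule and calprotectin probes had a median change of -0.12 in the autoreactive channel and 0.61 in the non-autoreactive channel, where all 8 were higher. The 4 primary granule probes had the reverse arrangement, with -0.94 in the autoreactive channel, where all 4 were lower, and -0.05 in the non-autoreactive channel. The receptors, adaptors and oxidase lay between, at -0.27 and 0.42. Raw signals, not normalised, gave median changes of -1.10 (autoreactive) and 0.13 (non-autoreactive) for the primary granule probes and of -0.23 and 0.69 for the secondary granule and calprotectin probes, where all probes had -0.15 and 0.17. Relative to the median of all probes these were -0.95 and -0.04, and -0.08 and 0.52. Probes of 1 gene, and genes of 1 granule stage, are not independent of each other.

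**Figure D2:**
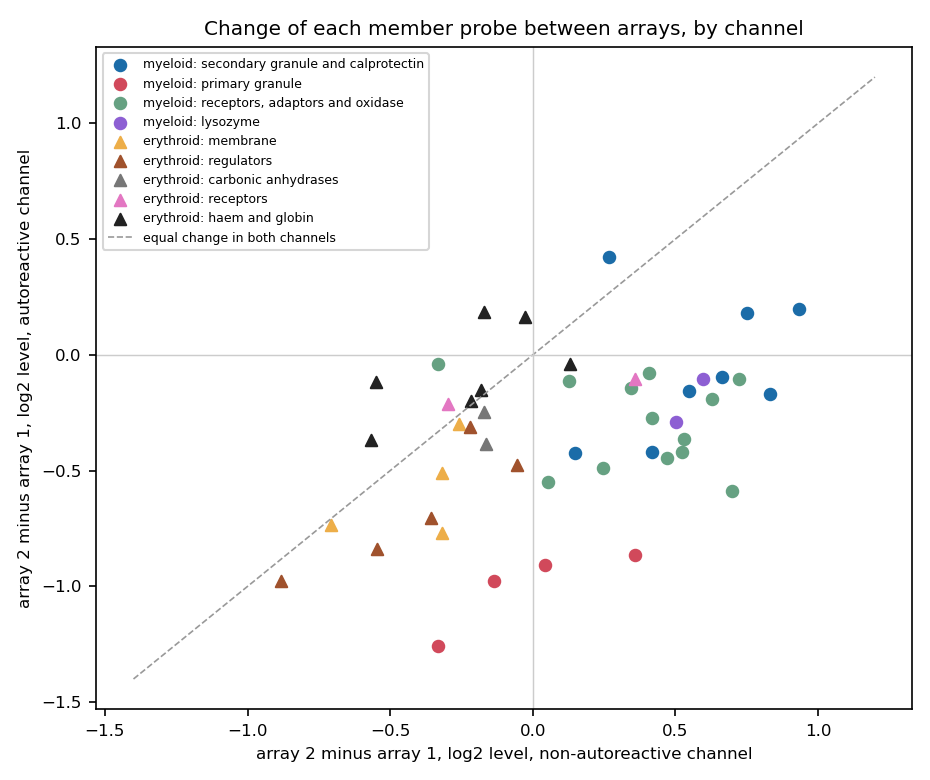
Change of the log2 level from array 1 to array 2 for each of the 47 member probes, in the non-autoreactive channel (x axis) and the autoreactive channel (y axis), with circles for myeloid and triangles for erythroid probes, coloured by role. Points below the dashed line of equal change have a lower ratio on array 2, where 25 of 27 myeloid probes lie; the 4 primary granule probes are lowest on the y axis apart from Klf1, and the secondary granule and calprotectin probes lie right of 0.

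In the erythroid block both channels were lower on array 2. The autoreactive level was lower on array 2 for 18 of 20 erythroid probes and the non-autoreactive level was higher for only 2 of 20, with median changes of -0.31 and -0.24. Without the 6 globin probes the medians were -0.43 and -0.31. Klf1 changed most in the non-autoreactive channel, from 10.96 to 10.08, while its autoreactive level went from 10.57 to 9.59. By block medians, the erythroid level was thus lower on array 2 in both RNAs, while the myeloid level differed in opposite directions in the 2 RNAs. In autoreactive RNA the erythroid exceptions were probes of Hbb-b1, higher on array 2 by 0.19 and 0.16, and the summed erythroid level was 17.41 and 17.39. Opposite directions did not hold for the primary granule probes, with median changes of -0.94 and -0.05.

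**Figure D3:**
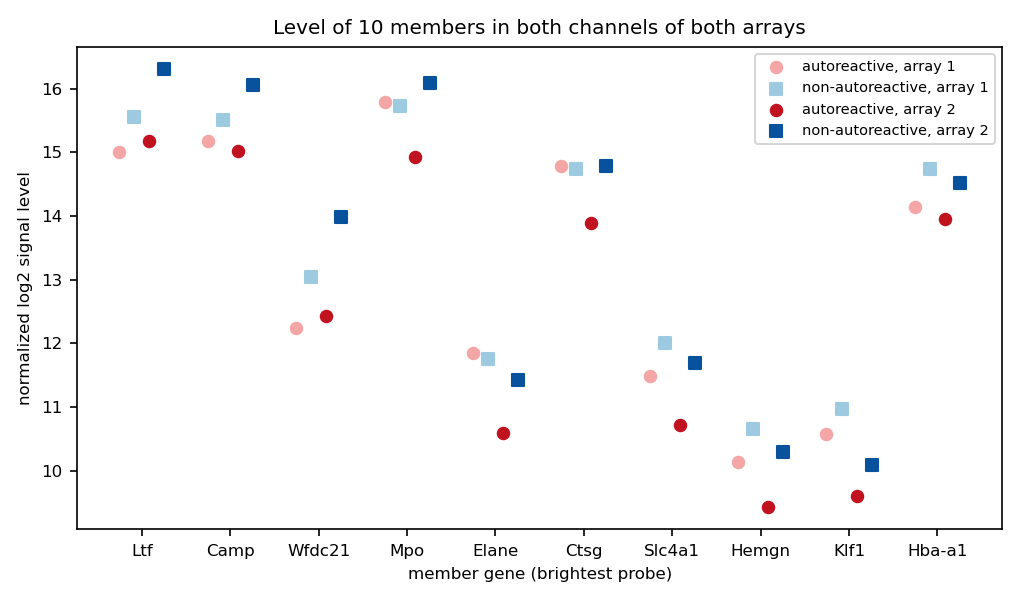
Normalised log2 level (y axis) of the brightest probe of 10 member genes (x axis), with circles for autoreactive and squares for non-autoreactive RNA, pale for array 1 and dark for array 2. Mpo, Elane and Ctsg have lower autoreactive circles on array 2, Ltf, Camp and Wfdc21 have higher non-autoreactive squares on array 2, and the erythroid genes are lower on array 2 in both.

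Other genes of these lineages came from lists drawn up with earlier results of these data known. In 36 probes of 26 further neutrophil genes the median ratio was -0.05 on array 1 and -0.65 on array 2, and all 36 were lower on array 2 than on array 1. Of these, 2 fell and 0 rose: Slpi, a secreted inhibitor of neutrophil proteases (-0.78 and -1.06), and Chil3, a chitinase-like protein of neutrophils and macrophages (-0.55 and -0.83). In 19 probes of 15 myeloid progenitor genes the medians were -0.13 and -0.81, where 2 fell, both of the chaperone Calr, which all cells express. In 34 probes of 25 monocyte and macrophage genes they were -0.06 and -0.44, with 1 lower call, Ifi30, a lysosomal thiol reductase that B cells also express. Eosinophil, basophil and mast cell genes (12 probes of 11 genes) had medians of 0.06 and -0.30 and 2 lower calls, Prg3 (-1.06), an eosinophil granule protein, and Il5ra (-0.61), a chain of the interleukin 5 receptor. Megakaryocyte genes (12 probes of 10 genes), the lineage nearest to the erythroid one, had medians of 0.18 and 0.23 and 2 higher calls, both of the integrin chain Itgb3 (mean ratios 0.81 and 0.65). The median of their mean ratios was nevertheless 0.01, and 8 of 12 probes were lower on array 2 than on array 1.

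Further erythroid genes (59 probes of 42 genes) had median ratios of -0.18 and -0.16, nearer 0 than the members but likewise alike on both arrays. There 4 probes fell and 1 rose. The lower calls were 3 probes of Bcl11a (-2.35, -2.20 and -1.29), a globin repressor that B cells need, and 1 of Lmo2 (-1.92), a GATA1 partner also present in B cells. The higher call was Blvrb (1.11), a biliverdin reductase.

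Markers of plasmacytoid dendritic cells and of T and NK cells were, like the myeloid block, lower on array 2. For conventional dendritic cells the array medians were close, but 6 of 7 probes were lower on array 2, with a median difference of -0.65. The sort took B220+ cells without surface CD43, a protein that T and NK cells carry. The 22 probes of 13 plasmacytoid dendritic cell genes, a B220+ lineage, had median ratios of -0.41 on array 1 and -1.57 on array 2, and 3 fell, those of Pld4 (-2.10), Ly6d (-1.32) and Cox6a2 (-1.22). Their summed log2 level was 16.74 and 16.61 in autoreactive cells and 17.40 and 17.59 in non-autoreactive cells. The 19 probes of 17 T and NK cell genes had -0.14 and -1.30, with summed levels of 14.93 and 14.23 against 15.21 and 15.33. There 4 probes fell, both of Ccl5 (-1.83 and -1.81), that of Cd5 (-1.49) and that of Zap70 (-0.74), while Cd4 had no probe above background. The 7 conventional dendritic cell probes had 0.17 and 0.12, with 1 higher call, Irf4 (0.89). The part of these cells in the myeloid values was not tested. Whether the called transcripts of these lists came from such cells or from the sorted B cells was not tested either. The summed log2 level of the 27 myeloid probes was 19.23 and 19.01 in autoreactive cells and 19.04 and 19.51 in non-autoreactive cells, so the groups overlapped only through array 1. The summed erythroid level was 17.41 and 17.39 against 17.88 and 17.70, without overlap. The 6 globin probes made up 83.3% to 87.1% of the erythroid sum, and without them it was 14.83 and 14.48 against 14.93 and 14.83, so that the groups met. Tfrc and Car2, which other cell types also express, had the highest levels in that smaller sum (13.32 and 13.12 in autoreactive cells on array 1). Of its 14 probes, 13 had ratios below 0 on both arrays. S100a8, S100a9 and Lyz2 (4 probes) made up 47.4% to 65.0% of the myeloid sum, and without them it was 17.85 and 17.50 against 18.07 and 18.58, without overlap. These sums without the brightest genes were chosen after seeing the data.

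**Figure D4:**
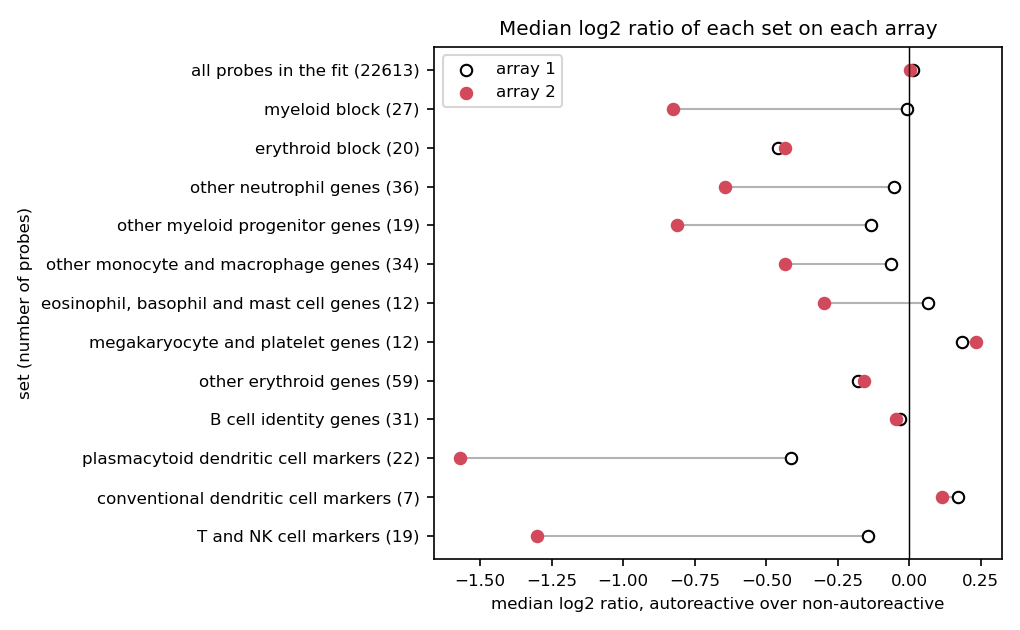
Median log2 ratio of autoreactive over non-autoreactive signal (x axis) of each gene set (y axis, number of probes in brackets), with open circles for array 1 and red circles for array 2. Myeloid, plasmacytoid dendritic, and T and NK cell sets are lower on array 2, whereas the erythroid, B cell identity and megakaryocyte sets have nearly the same median on both arrays. Medians do not show the change of single probes, and 8 of 12 megakaryocyte probes are lower on array 2.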

How the data were processed

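Per the labels, RNA pools were amplified and labelled from 0.5 ug of total RNA, and per the file headers Agilent Feature Extraction 9.5.1.1 read the spots. The deposited scanner files give mean and background intensity per spot, which the authors had not normalised, and a log10 ratio of Cy5 over Cy3 already background-subtracted and dye-normalised by that software; the deposited value table holds the same log10 ratios. The genome build of the probe coordinates is not given in the sources used here.

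Intensities were corrected with normexp (offset 50) and loess in limma 3.58.1 (R 4.3.3), leaving out control spots and 274 and 306 outlier spots, and the 43379 non-control spots per array were averaged by probe. The fit took 22613 of 41174 probes, those well above background on each array in either or both channels. The ratio was tested against 0 (lmFit, eBayes, residual df 1, prior df 5.10), with Benjamini-Hochberg adjustment over all probes and a threshold of 0.05. Each SE of a mean ratio is the moderated one of this fit. Channel levels were set on 1 scale with Aquantile. The named genes are all members, each by every probe, with the brightest probe as its representative; list genes are named where called. The fit was tested on simulated data. The members and lists were chosen with earlier results of these data known. With 2 arrays, their number limits the precision, and the alternatives tried were background correction, normalisation, the filter on dim probes, the variance model, separate channels and each array alone.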

Additional observations from a re-analysis of the deposited data

How the results depend on the processing

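Of the 47 member probes, all kept direction and side of the threshold without background correction, and 45 did with an offset of 16 or with a trended, robust variance. The 4 called probes lost their lower call in 4 (Ltf), 3 (Wfdc21), 5 (Slc4a1) and 6 (Hemgn) of 9 alternatives, and with centring on all spots Ltf was called higher (limma adjusted p = 0.0429). The cause was not tested. Myeloid lower calls, 2 as reported, were 0 with centring on all spots, with no filter and with separate channels, and 1 with gene means. Erythroid lower calls, 2 as reported, were 0 with offset 16, the deposited ratios, centring on all spots, no filter and separate channels, 4 with both channels above background, and 9 with centring on the probes above background. Higher calls, 0 as reported, were 8 (myeloid) and 7 (erythroid) with centring on all spots, and 3 (myeloid) with centring on the probes above background. Over all probes these settings called 14276 and 3500 higher and 518 and 3920 lower, against 718 and 494. Separate channels called 89 lower and 127 higher.

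The myeloid median turned to 0.29 and the erythroid to 0.12 with centring on all spots (all probes 0.54). The erythroid median was -0.46 without background correction and with offset 16, and -0.54 with the deposited ratios. Each array alone gave a myeloid median between -0.83 and -0.0081 and an erythroid median between -0.46 and -0.43, with 0 to 8 myeloid and 0 erythroid probes at least 2-fold lower.

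With centring on all spots, 29 member probes turned above 0: Ltf 0.40 and 0.38, Camp 0.53, Ngp 0.42, Lcn2 0.37, Mpo 0.70, Elane 0.29, Prtn3 0.36, Ctsg 0.66, Csf1r 0.25, Csf3r 0.041, Itgam 0.35 and 0.15, Fcgr3 0.21 and 0.27, Fcer1g 0.25 and 0.29, Tyrobp 0.088, Lyz2 0.26, Gata1 0.13, Klf1 0.12, Car2 0.72, Alas2 0.12, Hbb-b1 0.87, 0.82, 0.77 and 0.32, and Hba-a1 0.47 and 0.59. The list genes Calr (0.076), Chil3 (0.40), Ifi30 (0.34) and Slpi (0.080) turned too. With centring on the probes above background, Mpo 0.17, Ctsg 0.13, Car2 0.18, Hbb-b1 0.34, 0.29 and 0.24, and Hba-a1 0.057 turned above 0. With the deposited ratios, S100a8 (-0.32), S100a9 (-0.32) and Lyz2 (-0.19) turned below 0. Values on each array alone (array 2 to array 1) that span 0 were Lcn2 -0.75 to 0.0040, Mpo -1.16 to 0.060, Elane -0.84 to 0.081, Prtn3 -0.67 to 0.17, Ctsg -0.89 to 0.056, Csf1r -0.48 to 0.13, Itgam -0.61 to 0.13 and -0.43 to 0.056, Cd14 -1.25 to 0.039, Fcer1g -0.77 to 0.12, S100a9 -0.14 to 0.70, Lyz2 -0.10 to 0.60 and Tfrc -0.16 to 0.31.

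The reported fit already pairs the groups within each array, and the separate channels are the fit without pairing. No further paired analysis was possible because 1 ratio per array leaves no block to add. Both arrays share 1 slide and 1 dye orientation, so dye bias cannot be told apart from the group.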
